A study of Mus musculus with 8 samples.

Results

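The 78 genes described here encode the proteins of the mitochondrial ribosome whose mouse symbols are Mrpl or Mrps followed by a number, with or without a final letter. They were chosen by name from the genes of a single-color SurePrint G3 mouse microarray hybridised with RNA of photoreceptor cells. The group was also selected on earlier results of the same comparison between genotypes, so the differences between genotypes below are a description and carry no test. All 78 symbols had a probe, and all 78 were measured well above background on all 8 arrays, out of 14848 genes with a tested probe. A gene with more than 1 probe is given by its probe with the highest mean signal.

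The mitochondrial ribosome translates the few proteins that the mitochondrial genome encodes, all of which are subunits of the respiratory chain or of ATP synthase. Its RNAs come from the mitochondrial genome, whereas its proteins are encoded in the nucleus, translated in the cytosol and imported. Some of these proteins have bacterial counterparts and others occur only in mitochondria. Photoreceptors are known for a high demand for energy and for mitochondria that are packed in the inner segment.

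The study asked which transcripts differ in photoreceptor cells of mice that lack Lpcat1, an acyltransferase that makes saturated phosphatidylcholine, at the age when cell death begins. Cells were taken at P8 from mice of strain C57BL/6 labelled Lpcat1 heterozygous (HZ) or Lpcat1 KO, with 4 arrays each, and every control therefore carried a mutant allele. According to the methods, the deletion had been made on a C57BL6/N background, the line was crossed with C57BL6/J, and mice homozygous for the rd8 allele of Crb1 were not used. Cells were labelled for CD73, a surface marker of photoreceptors, and collected with magnetic beads, and neither the labels nor the methods say whether an array holds 1 animal or a pool.

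Values are log2 signal intensities minus the 75th percentile of the array, so 0 stands for a signal at that percentile, and each difference is the mean of the arrays labelled KO minus the mean of those labelled HZ on this log2 scale. The 75th percentile lay between 882 and 1024 intensity units. All 8 rod markers (Nrl, Crx and others) were well above background on all 8 arrays. Of these, 2 were higher in KO and 6 lower, with a median difference of -0.04 and a range from -0.21 to 0.36. The probe for Lpcat1 did not separate the labels, with values of -0.81, -0.95, -1.02 and -1.17 in HZ and of -0.97, -1.17, -1.11 and -0.85 in KO, and whether it lies inside the deleted part of the gene was not tested. Each genotype filled its own row of the slide (KO row 1, HZ row 2), so the row and the genotype cannot be told apart. Non-uniform spots numbered 458 on HZ replicate 4 and 2 to 25 elsewhere. Markers of other cells differed with the labels, given here as the mean deviation of a list from its genes' own means. The 7 tested of 8 RPE markers were all lower in KO, with a level of 0.25 to 1.34 in HZ and of -1.72 to -0.16 in KO, and the 8 microglia markers were all higher, with -0.89 to 0.34 in HZ and -0.03 to 0.83 in KO. The 2 tested of 5 red blood cell markers were both higher in KO, and 1 of 6 Muller glia markers was. Rlbp1, with a difference of -0.97, was counted in both the RPE and the Muller glia lists and was the lowest of the latter. The part of these other cells in the results below was not tested, and in such bulk samples fewer cells of a type and less RNA per cell cannot be told apart.

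Most mitochondrial ribosomal protein genes had a slightly higher mean signal on the arrays labelled KO. The mean was higher for 69 of the 78 genes (88.5%) and lower for 9, against 56.8% higher among all tested genes. The median difference was 0.11, with quartiles of 0.05 and 0.17 and a range from -0.17 to 0.38, against a median of 0.03 over all tested genes. The differences were small for single genes. The signals of 73 of the 78 genes (93.6%) differed by less than 1.2-fold, against 79% of all tested genes, and the 5 genes at or above 1.2-fold (Mrpl36, Mrpl50, Mrpl57, Mrps18b and Mrpl1) were all higher in KO. The median standard error of a difference was 0.10, close to the median difference itself, and 0.12 over all tested genes. These comparisons with all tested genes were not matched for signal.

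At the stricter of the study's thresholds (1.2-fold, adjusted p of 0.05), 0 of the 78 genes passed, as did 0% of all tested genes, by limma with Benjamini-Hochberg adjustment. At the looser pair (1.5-fold, adjusted p of 0.5), 0 genes passed as higher and 0 as lower, against 0.33% and 1.13% of all tested genes. At an unadjusted p of 0.05 by limma, 4 genes were higher and 0 lower, against 5.81% and 3.5%. The 4 KO arrays lay above the 4 HZ arrays for 4 genes (Mrpl36, Mrpl57, Mrpl1 and Mrpl13) and below them for 0, against 5.48% and 2.52%. As the group was selected on this comparison, nothing is read from these counts.

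**Figure D1:**
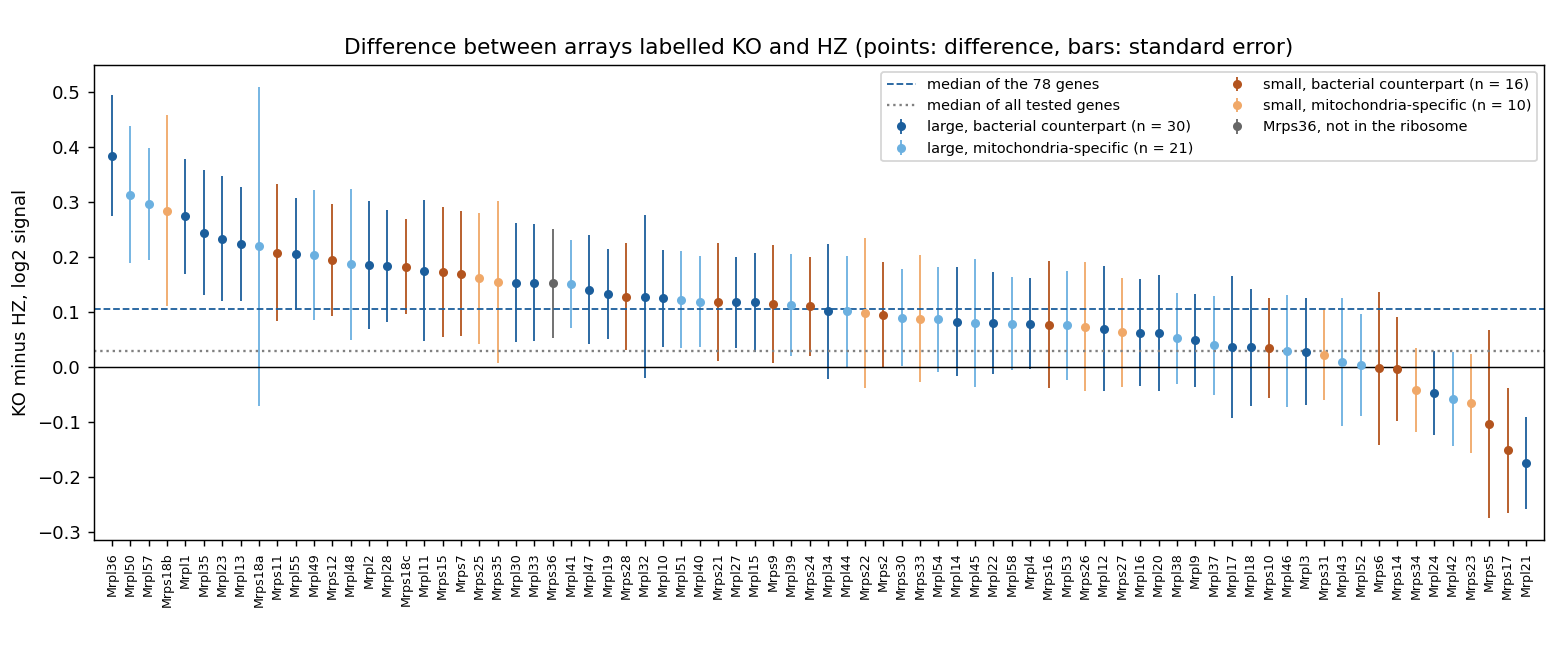
Difference between the 4 arrays labelled KO and the 4 labelled HZ for each of the 78 genes, in log2 signal, ordered by size, with bars for the standard error of the limma fit and colors for the subunit and for the presence of a bacterial counterpart. The dashed line is the median of the 78 genes (0.11) and the dotted line that of all tested genes (0.03), and 69 points lie above 0.

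Before the single genes, 5 promoters are shown, those of the 3 genes with the largest differences (Mrpl36, Mrpl50 and Mrpl57) and of Mrps18b and Mrps18c, relatives of each other on the small subunit, because genes for mitochondrial proteins are known to share promoter motifs for NRF1, for ETS factors such as GABP, and for YY1. The sequences are the 250 bases before the start of the transcript in RefSeq on GRCm38.p6, written 5′ to 3′ on the strand of the gene, with matches to the motifs in capitals. The motifs searched on both strands were GCATGCGC (NRF1 core), CCGGAAGT (ETS core) and AAGATGG (YY1 core).
Mrpl36, chr13:73330759-73331008, plus strand: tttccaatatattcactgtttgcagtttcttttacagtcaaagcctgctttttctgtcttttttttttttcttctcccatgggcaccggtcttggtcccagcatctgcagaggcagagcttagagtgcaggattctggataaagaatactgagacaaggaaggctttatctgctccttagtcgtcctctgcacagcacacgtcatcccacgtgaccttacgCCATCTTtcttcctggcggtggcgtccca
Mrpl50, chr4:49521084-49521333, minus strand: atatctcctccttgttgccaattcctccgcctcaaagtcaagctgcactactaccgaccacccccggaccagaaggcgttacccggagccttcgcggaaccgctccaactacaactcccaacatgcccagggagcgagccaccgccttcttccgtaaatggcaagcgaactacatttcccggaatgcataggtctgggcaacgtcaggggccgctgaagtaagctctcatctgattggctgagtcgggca
Mrpl57, chr14:57825989-57826238, plus strand: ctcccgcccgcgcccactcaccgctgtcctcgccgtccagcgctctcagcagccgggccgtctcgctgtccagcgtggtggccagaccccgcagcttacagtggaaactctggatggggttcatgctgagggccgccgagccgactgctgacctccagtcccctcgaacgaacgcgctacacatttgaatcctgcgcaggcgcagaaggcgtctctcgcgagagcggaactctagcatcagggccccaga
Mrps18b, chr17:35916441-35916690, minus strand: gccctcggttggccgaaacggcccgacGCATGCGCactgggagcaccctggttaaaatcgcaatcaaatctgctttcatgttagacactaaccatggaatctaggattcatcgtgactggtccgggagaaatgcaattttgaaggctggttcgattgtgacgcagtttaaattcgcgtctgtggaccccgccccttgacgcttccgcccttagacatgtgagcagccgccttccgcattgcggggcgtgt
Mrps18c, chr5:100798509-100798758, plus strand: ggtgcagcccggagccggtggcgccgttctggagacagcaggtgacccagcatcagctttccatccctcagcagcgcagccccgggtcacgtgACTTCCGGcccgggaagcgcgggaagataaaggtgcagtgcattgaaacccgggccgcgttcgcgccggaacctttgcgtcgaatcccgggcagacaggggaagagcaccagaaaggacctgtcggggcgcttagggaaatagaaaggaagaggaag

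The upstream stretch of Mrpl36 held the YY1 core as its reverse complement CCATCTT, 29 bases before the start. That of Mrps18b held the NRF1 core 223 bases before the start, and that of Mrps18c the ETS core as its reverse complement ACTTCCGG, 157 bases before it. The stretches of Mrpl50 and Mrpl57 held none of the 3 strings of letters.

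In windows of 300 bases, which add 50 bases after the start, 69 of the 78 genes had at least 1 RefSeq window. The NRF1 core occurred in 8 of them (11.6%), against 3.05% of all 27025 genes with a window. The ETS core occurred in 12 (17.4%), against 4.31%, and the YY1 core in 13 (18.8%), against 7.28%. At least 1 of the 3 motifs was present for 29 genes (42.0%), against 13.7% of all genes, 37.9% of the respiratory chain and ATP synthase genes and 38.5% of the cytosolic ribosomal protein genes. The windows of the mitochondrial ribosomal protein genes were also richer in G and C, with a median of 58% against 52.75%, and base composition was not matched in this comparison. By motif, the shares in these other lists rest on 3 to 12 genes each and were not tested. The NRF1 core was found for 15.2% of the respiratory chain and ATP synthase genes and 4.62% of the cytosolic ribosomal protein genes, and the ETS core for 7.58% and 18.5%. For the YY1 core the shares were 16.7% and 15.4%. A match of letters is a description of the window and not a binding site.

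The differences of genes with and without each motif can be set side by side. The median difference was 0.12 for the 8 genes with the NRF1 core, all higher in KO, and 0.10 for the 61 without it, of which 53 were higher. It was 0.09 for the 12 genes with the ETS core, all higher in KO, and 0.11 for the 57 without it, of which 49 were higher. It was 0.17 for the 13 genes with the YY1 core, of which 12 were higher, and 0.10 for the 56 without it, of which 49 were higher. No test was made of these medians.

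The large subunit, which joins amino acids into the chain, was represented by 51 genes, including Mrps18a and Mrps30, whose proteins sit in the large subunit despite their names. Of these, 48 were higher in KO and 3 lower, with a median difference of 0.11. This median was 0.07 without HZ replicate 4 and 0.07 with quantile normalization. The 30 large-subunit proteins with a bacterial counterpart (28 higher) had a median of 0.12, and the 21 that occur only in mitochondria (20 higher) a median of 0.09.

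Mrpl36, a small large-subunit protein with a bacterial counterpart, had the largest difference. Its signals were 2.05, 1.68, 1.98 and 1.73 in HZ and 2.19, 2.34, 2.14 and 2.31 in KO. The groups did not overlap, and the mean was higher in KO by 0.38 (SE 0.11), or 1.31-fold. Mrpl57, found only in mitochondria, gave 4.30, 4.46, 4.27 and 4.27 in HZ and 4.47, 4.59, 4.59 and 4.83 in KO. The highest HZ array lay just under the lowest KO array, and the difference was 0.30 (SE 0.10).

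Mrpl1 belongs to the stalk beside the site where spent tRNAs leave the ribosome. Its signals were -0.22, 0.13, -0.02 and -0.04 in HZ and 0.14, 0.36, 0.14 and 0.32 in KO, which differed by 0.27 (SE 0.10). Here too the groups touched without overlapping. Mrpl13, with a bacterial counterpart, gave 2.77, 2.92, 2.77 and 2.82 in HZ and 2.99, 2.94, 2.94 and 3.30 in KO, a difference of 0.22 (SE 0.10). KO replicate 4 stood well above the other arrays labelled KO, and without it the difference was 0.14.

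Mrpl50, which occurs only in mitochondria, gave -1.13, -0.83, -1.0 and -0.85 in HZ and -0.84, -0.56, -0.76 and -0.39 in KO. The lowest KO array fell inside the HZ range, and the difference was 0.31 (SE 0.12). Mrpl23, known from bacteria at the mouth of the tunnel through which the new chain leaves, gave 3.94, 4.11, 3.87 and 4.05 in HZ and 4.16, 4.22, 4.05 and 4.48 in KO. The difference was 0.23 (SE 0.11), and 0.15 without KO replicate 4, the highest array. Mrpl35, with a bacterial counterpart, gave -1.83, -1.69, -1.82 and -2.17 in HZ and -1.59, -1.58, -1.67 and -1.70 in KO. HZ replicate 4 was the lowest array, and the difference was 0.24 (SE 0.11) with it and 0.15 without it. Another background correction, normexp, changed several of these values, to 0.24 for Mrpl36, 0.02 for Mrpl50 and 0.04 for Mrpl13, and turned the sign for Mrpl57 (-0.009), Mrpl1 (-0.04) and Mrpl23 (-0.03).

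The large-subunit members Mrpl12, Mrpl58 and Mrps30, named for their roles or place, lay between the lower quartile (0.05) and the median (0.11) of the 78 genes. Mrpl12, the stalk protein that contacts translation factors, gave 2.74, 2.95, 2.55 and 2.52 in HZ and 2.87, 2.75, 2.67 and 2.75 in KO, with the KO arrays inside the HZ range. Its difference was 0.07 (SE 0.11), and 0.01 without HZ replicate 4 or 0.16 without HZ replicate 2. Leaving out HZ replicate 3 gave 0.02 and KO replicate 1 0.03. Mrpl58, a peptidyl-tRNA hydrolase built into the subunit, gave 3.94, 4.10, 3.88 and 3.97 in HZ and 4.05, 4.02, 3.98 and 4.15 in KO, a difference of 0.08 (SE 0.08) with overlapping groups. It was 0.05 without KO replicate 4 or HZ replicate 3 and 0.12 without HZ replicate 2. For Mrps30 the difference was 0.09 (SE 0.09), with 1.53 to 1.82 in HZ and 1.70 to 1.79 in KO. Without HZ replicate 4 it was 0.05, and without HZ replicate 2 it was 0.14.

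The 3 large-subunit genes with a lower mean in KO were Mrpl21, Mrpl24 and Mrpl42. Mrpl21, with a bacterial counterpart, had the most negative difference of the 78 genes. It gave 1.39, 1.48, 1.38 and 1.28 in HZ and 1.13, 1.18, 1.19 and 1.32 in KO, lower by 0.17 (SE 0.08), with KO replicate 4 inside the HZ range, and stood at 0.01 with normexp. Mrpl24 and the mitochondria-specific Mrpl42 were lower by 0.05 (SE 0.08) and by 0.06 (SE 0.09), differences smaller than their standard errors. For Mrpl24 the omission of HZ replicate 4 gave -0.02 and that of HZ replicate 3 gave -0.08, and with normexp background correction it turned to 0.02. For Mrpl42 it was -0.03 without HZ replicate 2 or KO replicate 4 and -0.10 without KO replicate 2, and with normexp it turned to 0.20. They were the only 2 of the 78 genes that were lower in KO for every replicate number.

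The small subunit, which reads the mRNA, was represented by 26 genes, of which 20 were higher in KO and 6 lower, with a median difference of 0.10, or 0.05 with quantile normalization. The 16 with a bacterial counterpart (12 higher) had a median of 0.11 and the 10 found only in mitochondria (8 higher) a median of 0.08. Mrps12, a protein of the decoding center, gave 3.51, 3.67, 3.37 and 3.31 in HZ and 3.70, 3.64, 3.56 and 3.72 in KO. HZ replicate 2 reached into the KO range, and the difference was 0.19 (SE 0.10).

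The 3 relatives of the bacterial protein S18 had unequal spreads. Mrps18c takes the place of the bacterial protein and was counted as its counterpart, whereas Mrps18a and Mrps18b sit elsewhere in the ribosome and were counted as mitochondria-specific. Mrps18c, on the small subunit, gave 2.44, 2.62, 2.45 and 2.37 in HZ and 2.60, 2.68, 2.59 and 2.74 in KO, a difference of 0.18 (SE 0.09). Mrps18b, on the small subunit, gave 3.10, 2.28, 2.95 and 2.87 in HZ and 3.07, 3.11, 2.95 and 3.20 in KO. HZ replicate 2 was the low array, and the difference was 0.28 (SE 0.17) with it and 0.11 without it. Mrps18a, on the large subunit, gave 2.21, 2.28, 2.08 and 1.04 in HZ and 2.19, 2.34, 2.29 and 1.67 in KO, so that replicate 4 was the low array in both groups. Its difference of 0.22 (SE 0.29) turned to -0.07 without HZ replicate 4 and was 0.37 without KO replicate 4 and 0.35 without HZ replicate 2.

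The 6 small-subunit genes with a lower mean in KO were Mrps17, Mrps5, Mrps23, Mrps34, Mrps14 and Mrps6. Mrps17, with a bacterial counterpart, gave 2.79, 3.02, 2.75 and 2.69 in HZ and 2.44, 2.79, 2.65 and 2.75 in KO, lower by 0.15 (SE 0.11). The difference was -0.08 on leaving out either KO replicate 1 or HZ replicate 2, and 0.01 with normexp. Mrps5, known from bacteria at the entry of the mRNA channel, gave 0.94, 1.15, 0.76 and 0.81 in HZ and 0.35, 1.05, 0.83 and 1.01 in KO. KO replicate 1 was the low array. The difference of -0.10 (SE 0.17) was 0.05 without it, -0.02 without HZ replicate 2, and -0.19, -0.17 and -0.16 without KO replicate 2, KO replicate 4 and HZ replicate 3. Mrps23 and Mrps34, found only in mitochondria, were lower by 0.07 (SE 0.09) and by 0.04 (SE 0.08). Without HZ replicate 2 these differences were -0.009 and -0.01, without HZ replicate 4 and KO replicate 3 that of Mrps23 was -0.10 and -0.04, and without HZ replicate 3 that of Mrps34 was -0.07. With normexp both turned, to 0.08 and 0.11. Mrps14 and Mrps6, with differences of -0.003 (SE 0.09) and -0.002 (SE 0.14), lay at 0. That of Mrps14 took either sign as single arrays were left out, from -0.05 without HZ replicate 4 to 0.04 without HZ replicate 2. Mrps6 did not meet the rule for named genes and is given only to complete the count.

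Mrps36 carries the name of a small-subunit protein, but its product is now known as a component of the oxoglutarate dehydrogenase complex and was counted in neither subunit. It gave 1.83, 1.89, 1.73 and 1.86 in HZ and 2.12, 1.97, 2.06 and 1.77 in KO, a difference of 0.15 (SE 0.10). The 5 proteins of the mitochondrial ribosome with other names were all higher in KO as well, with a median of 0.13. Dap3, a GTP-binding protein of the small subunit, gave 3.71, 3.71, 3.59 and 3.77 in HZ and 3.82, 3.86, 3.88 and 4.11 in KO. These groups did not overlap, and the difference was 0.22 (SE 0.09, adjusted p = 0.603 by limma). Gadd45gip1, a large-subunit protein, differed by 0.14 (SE 0.15, adjusted p = 0.812 by limma).

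The array-to-array variation of the 78 genes was largely shared, within a genotype as well as between genotypes. For each array, a score was taken as the mean, over the 78 genes, of each gene's deviation from its own mean over the 8 arrays. The score was -0.04, 0.09, -0.10 and -0.17 on HZ replicates 1 to 4 and 0.04, 0.09, -0.01 and 0.09 on KO replicates 1 to 4. The groups overlapped, as HZ replicate 2 stood level with the highest KO arrays. The mean was -0.05 ± 0.11 (SD, n = 4) in HZ and 0.05 ± 0.05 (SD, n = 4) in KO.

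The spread within HZ was carried by a pair of arrays that lay far apart. On HZ replicate 2, 67 of the 78 genes were above their own mean, and this array gave the highest value of all 8 for 24 genes. On HZ replicate 4, only 7 genes were above their own mean, and it gave the lowest value for 42 genes. HZ replicates 1 and 3 had 28 and 9 genes above their mean. On KO replicates 1 to 4 there were 52, 68, 33 and 59. The share of all tested genes above their own mean was 60.5% on HZ replicate 2 and 43.1% on HZ replicate 4. Without HZ replicate 4 the median difference over the 78 genes was 0.07 and 61 genes were higher in KO, whereas without HZ replicate 2 the median was 0.14 and 71 were higher. The median over all tested genes was 0.02 and 0.06 in these settings.

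**Figure D2:**
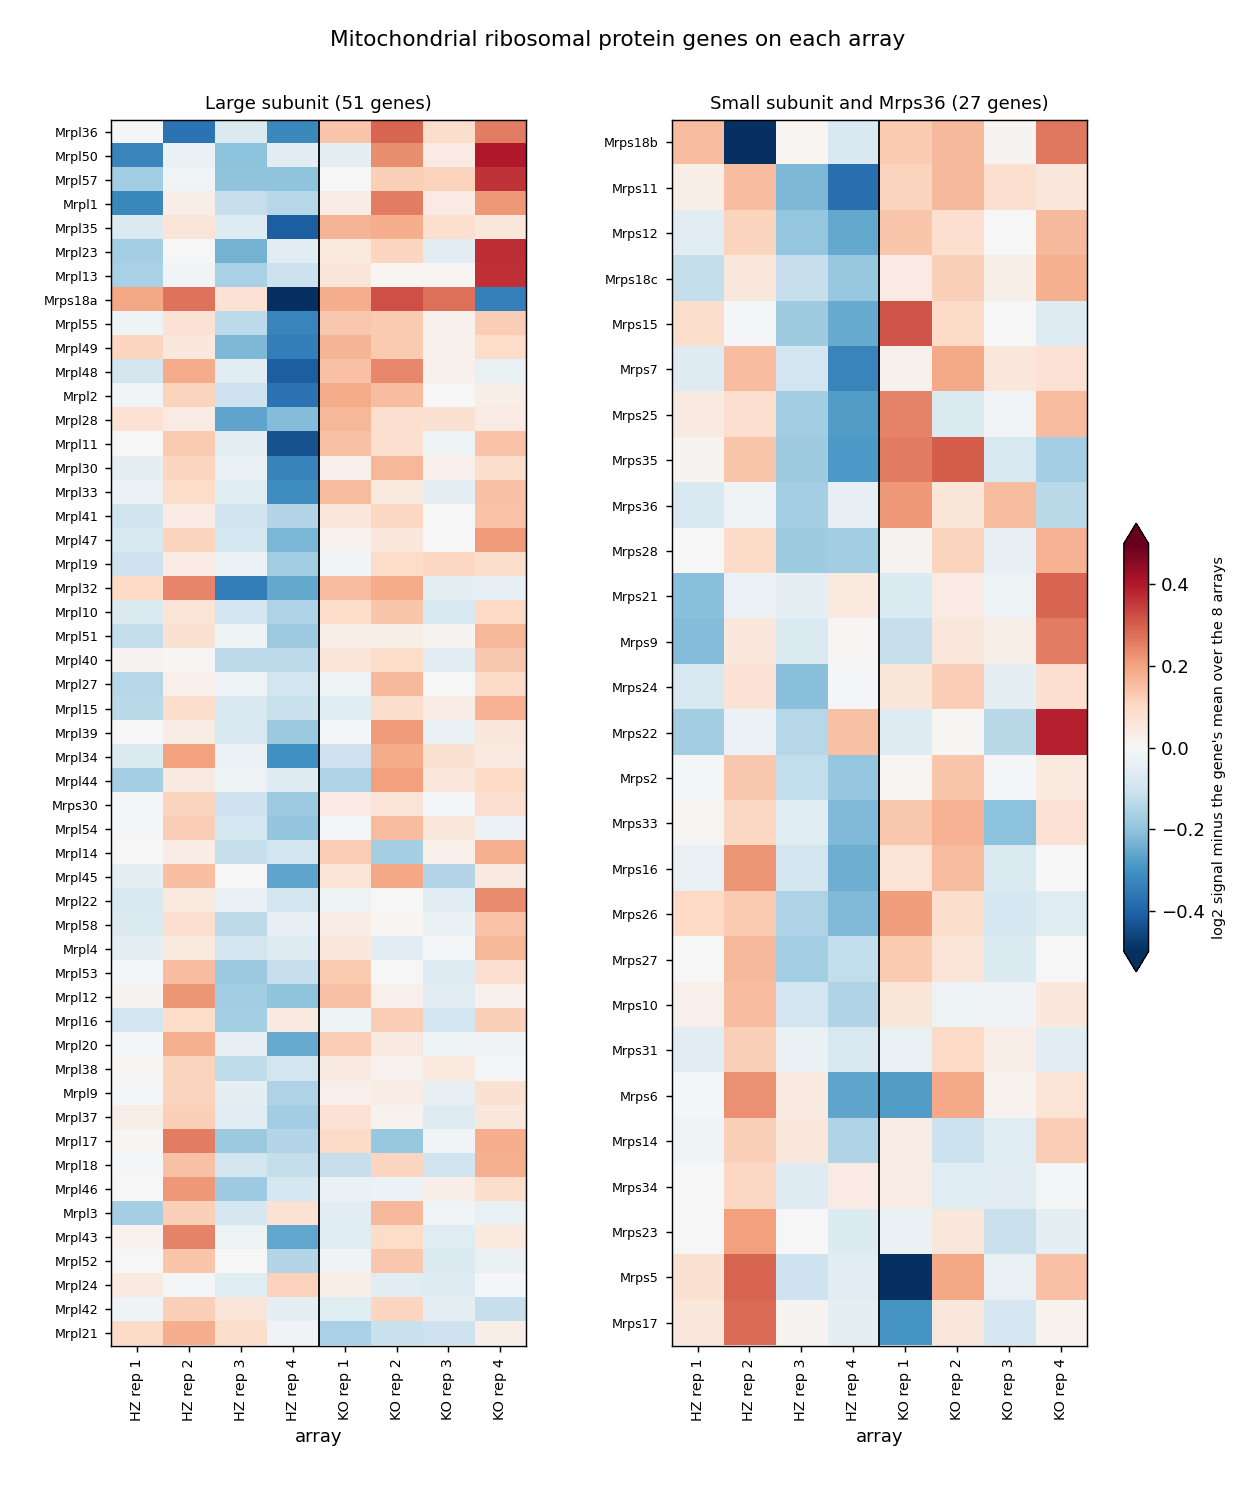
Log2 signal of each of the 78 genes (rows, ordered by their difference) on each of the 8 arrays (columns), as deviation from the gene's own mean over the arrays, with red above and blue below it and colors ending at 0.5 in either direction. HZ replicate 4 is mostly blue, with 7 genes above their mean, and HZ replicate 2 mostly red, with 67, like KO replicate 2, with 68.

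Arrays with the same replicate number also shared their slide column and deviated together from their group means, so differences were set side by side by number. In replicates 1, 3 and 4, 62, 64 and 73 of the 78 genes were higher in KO (79.5%, 82.1% and 93.6%), with median differences of 0.09, 0.09 and 0.26. The shares over all tested genes were 60.3%, 55.4% and 59.8%. In replicate 2, 40 genes were higher (51.3%), with a median difference of 0.003, against 49.5% of all tested genes. As the group was selected on this comparison, these shares are a description and no replication is read from them. Of the 78 genes, 32 were higher in KO in all 4 numbers, 30 in 3, 7 in 2, 7 in 1 and 2 in 0. The same count was not made over all tested genes, so nothing particular to the 78 is read from it.

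Other abundant gene families gave a like order of arrays. The 76 respiratory chain and ATP synthase subunits encoded in the nucleus had scores of -0.02, 0.10, -0.08 and -0.13 in HZ and 0.02, 0.05, -0.006 and 0.06 in KO. Of these genes, 58 were higher in KO (76.3%), with a median difference of 0.08. The 85 cytosolic ribosomal protein genes scored -0.06, 0.14, -0.05 and -0.14 in HZ and 0.004, 0.10, -0.01 and 0.03 in KO, with 67 higher (78.8%) and a median of 0.11. In all 3 families HZ replicate 4 was the lowest array, and HZ replicate 2 lay among the highest. Over all tested genes the scores ran between -0.07 and 0.07 and HZ replicate 4 stood at 0.03, above the mean. A larger difference for the mitochondrial ribosomal proteins than for these families was not tested.

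**Figure D3:**
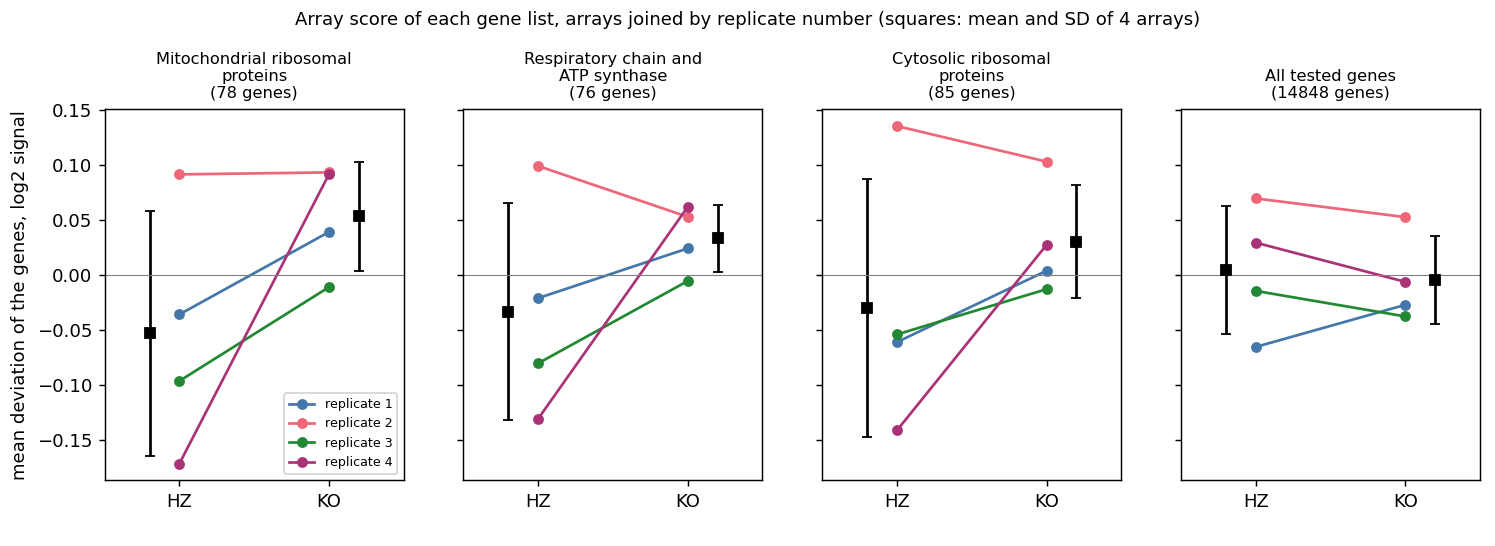
Score of each array (mean deviation of the listed genes from their own means, log2 signal) for 4 lists of genes, with lines joining the arrays of the same replicate number and squares with bars for the mean and SD of 4 arrays. For the 78 mitochondrial ribosomal protein genes, replicate 4 spans the widest gap, from -0.17 in HZ to 0.09 in KO, and replicate 2 is flat.

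Single genes followed this common score to different degrees. The correlation of a gene with the score of the other 77 over the 8 arrays had a median r of 0.757, and r was above 0.7 for 46 genes. It was highest for Mrps30 (r = 0.983) and below 0 for 3 genes, Mrpl24 (r = -0.474), Mrps18b (r = -0.0873) and Mrpl21 (r = -0.0798). These values describe 8 arrays that share normalization and labels, and no test was made. The share of all tested genes with r above 0.7 is not given, so the 46 are not read as a trait of the family. Among all tested genes outside the family, those most like its score were Rbm17 (r = 0.996), Trmt10b (r = 0.989), Gm20878 (r = 0.989), Gprin1 (r = 0.989) and Dad1 (r = 0.988). None of these 5 belongs to the lists of genes for mitochondrial translation, transcription and import used here.

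Several probes for the same gene allowed a partial check within arrays. For Mrpl1, Mrpl15 and Mrps23 the probes were matched to different RefSeq transcripts, so transcript and probe cannot be told apart there. The 78 genes were covered by 101 probes, with 57 genes on 1 probe and 21 on more than 1. Of the 23 further probes, 18 were higher in KO, against 56.8% of all tested genes by brightest probe. They measure the same RNA on the same arrays, so this count is not independent of the values above. The probes of 6 genes differed in sign. For Mrpl1 the brightest probe gave 0.27 (SE 0.10) and the other -0.17 (SE 0.20), and for Mrps18b the values were 0.28 (SE 0.17) and -0.02 (SE 0.13). For Mrps23 they were -0.07 (SE 0.09) and 0.25 (SE 0.12), for Mrps22 0.10 (SE 0.14) and -0.14 (SE 0.10), and for Mrps17 -0.15 (SE 0.11) and 0.002 (SE 0.10). For these genes the sign thus differed between probes, and whether by more than their error was not tested. The further probe was the dimmer, with a mean signal of -3.85 against 0.10 for Mrpl1 and of -1.57 against 2.52 for Mrps22. The sixth gene whose probes differed in sign was Mrps9.

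**Figure D4:**
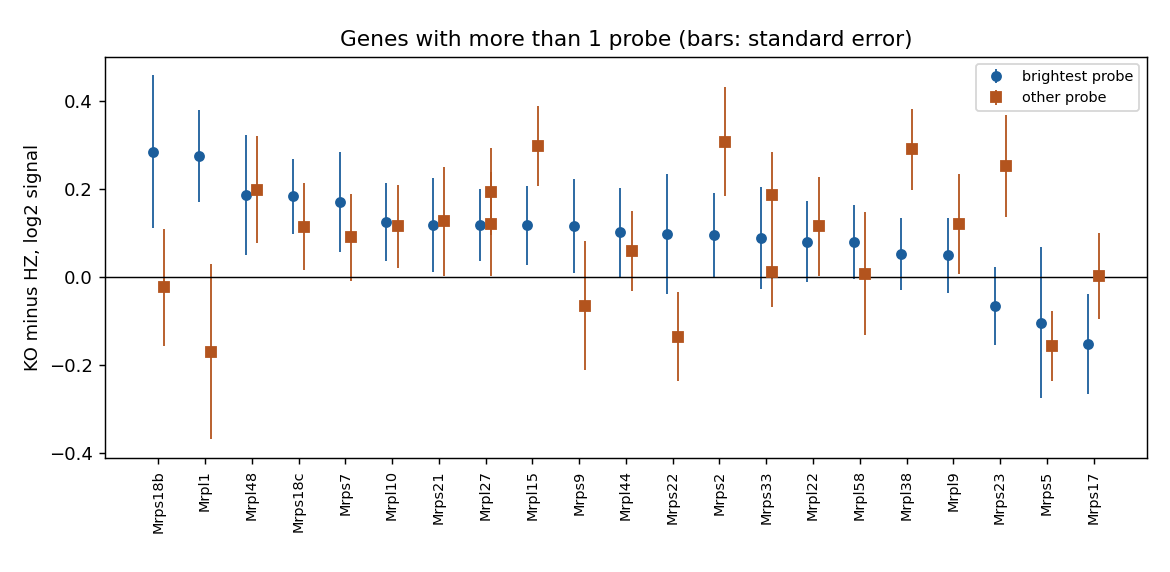
Difference between arrays labelled KO and HZ in log2 signal for the 21 genes with more than 1 probe, with circles for the brightest probe, squares for the others and bars for the standard error. Of the 23 squares 18 lie above 0, against 56.8% of all tested genes by brightest probe. For Mrpl1 the circle lies at 0.27 and the square at -0.17.

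A wider list of 97 genes outside the 78 was also taken, of which 96 were tested. It held genes of mitochondrial translation, genes of mitochondrial transcription, replication and protein import, and regulators of mitochondrial gene expression. In this wider list 62 genes were higher in KO and 34 lower, with a median difference of 0.06. By limma with adjustment over all tested probes, 0 passed either pair of thresholds, and the lowest adjusted p was 0.460, for Tomm20. At an unadjusted p of 0.05 by limma there were 4 higher (4.17%, against 5.81% of all tested genes) and 0 lower (against 3.5%).

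Factors that assemble the ribosome and modify its RNA came close to the median of all genes, with 16 of 25 higher in KO and a median of 0.05. Mrm1, which methylates the ribosomal RNA of the large subunit, differed by 0.36 (SE 0.15, adjusted p = 0.596 by limma), and the assembly factor Rbfa by 0.23 (SE 0.12, adjusted p = 0.650 by limma). Of the 15 tested translation factors 9 were higher, with a median of 0.03. The largest values there rested on single arrays. Mtfmt, which formylates the initiator tRNA, gave -0.88 on KO replicate 1 against 0.88 to 1.21 on the other arrays labelled KO and 0.99 to 1.22 in HZ (difference -0.57, SE 0.43, adjusted p = 0.736 by limma). Gfm2, a factor that recycles ribosomes, gave 0.18 on KO replicate 4 against 2.00 to 2.15 on the others labelled KO and 1.72 to 1.97 in HZ (difference -0.26, SE 0.41, adjusted p = 0.868 by limma).

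The 20 genes listed for the charging of mitochondrial tRNAs were evenly divided, with 10 higher and 10 lower and a median of 0.003. They were aminoacyl-tRNA synthetases and also Qrsl1, Gatb and Gatc, subunits of an amidotransferase that acts on charged tRNA. Nars2, for asparagine, differed by 0.34 (SE 0.14, adjusted p = 0.596 by limma), and Wars2, for tryptophan, by -0.21 (SE 0.10, adjusted p = 0.633 by limma). Of the genes for mitochondrial transcription, replication and protein import, 17 of 20 were higher, with a median of 0.11. Tomm20, a receptor for proteins imported through the outer membrane, gave 3.82, 3.94, 3.77 and 3.79 in HZ and 4.07, 4.15, 4.04 and 4.32 in KO. Its groups did not overlap, and the difference was 0.32 (SE 0.09, adjusted p = 0.460 by limma). Polg, the mitochondrial DNA polymerase, differed by 0.20 (SE 0.09, adjusted p = 0.624 by limma).

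Among 11 regulators of mitochondrial gene expression, 5 were higher and 6 lower, with a median of -0.08. Ppargc1b, a coactivator of genes for mitochondrial proteins, differed by -0.31 (SE 0.15, adjusted p = 0.639 by limma). Myc, a growth factor-induced transcription factor, differed by -0.40 (SE 0.45, adjusted p = 0.807 by limma) and was well above background on 3 arrays of each group.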

How the data were processed

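RNA of 8 samples (4 labelled Lpcat1 HZ, 4 labelled Lpcat1 KO) was hybridised to 8 arrays on 1 slide. The authors deposited scanner output of Agilent Feature Extraction 10.7.1.1, per the labels, which holds a background-corrected signal intensity per spot, with its marks for outlier, non-uniform and saturated spots and for signal well above background. A table of log2 values that the authors made with GeneSpring by 75 percentile shift was deposited too, in which the median of each probe over the arrays is 0 and which served as an alternative. The 78 genes, the other lists, the motifs, the rule for named genes and the alternatives were chosen with earlier results of these data known.

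Each array's 75th percentile, taken over 59305 non-control spots, was subtracted from its log2 signals. Outlier spots were dropped and replicate spots averaged per probe. Probes were named through RefSeq accessions (32994 of 56605 matched). Testing took in 34303 probes, those with signal well above background on 4 or more arrays and 3 or more values per group, by limma 3.58.1 (lmFit, eBayes, two-sided) in R 4.3.3 (files read with version 1.17.8 of data.table), with Benjamini-Hochberg adjustment. On arrays, the number of arrays limits the precision, and since no source says that arrays of a group came from separate animals, the spread between them may be technical.

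Named were the 8 genes with the largest positive and the 8 with the largest negative difference, genes with special names or roles, those whose groups did not overlap, up to 5 with probes of differing sign, the 2 largest of each other list, and the 5 most alike. To check whether replicate numbers pair the arrays, each array's deviations from its group's means were correlated. Same-numbered arrays gave r of 0.172 to 0.337, and others -0.337 to 0.117, so the numbers were taken as pairs for the values set side by side. Standard errors and p-values came from the unpaired limma fit, with the replicate block only as an alternative. Promoter windows came from RefSeq on GRCm38.p6. The build of the arrays' own annotation differs, and no gene coordinates were used with it. Some listed genes are not reported here by name. Plots were drawn with matplotlib 3.10.9. The alternatives were quantile normalization, normexp correction (offset of 50), another basis for the percentile, eBayes with trend and robust settings, looser and stricter filters on dim probes, the replicate block, the methods' t-test, the authors' processed values, the mean of a gene's probes and the omission of each array.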

Additional observations from a re-analysis of the deposited data

Results flagged for a closer look

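In 4 of 54 groups of 4 arrays, 1 array stood apart from the other 3 by more than the 95% limit of Dixon's test for such a gap, and 2.7 would be found by chance, as about 1 group in 20 is. Mrpl13 gave 3.295 on KO replicate 4 and 2.94 to 2.99 on the other arrays labelled KO. Mrpl57 gave 4.458 on HZ replicate 2 and 4.27 to 4.30 on the others labelled HZ. Mrps18a gave 1.037 on HZ replicate 4, against 2.08 to 2.28. HZ replicate 4 also had 458 non-uniform spots, against 2 to 22. Gfm2 and Mtfmt, whose single low arrays are given above, were not among these groups.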

How the results depend on the processing

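Of 18 alternatives, 5 (2 filters on dim probes, trend and robust eBayes, the methods' t-test and the replicate block) cannot move a difference of means in these data. Under the other 13 the median difference over the 78 genes was above 0, from 0.07 with quantile normalization to 0.14 without HZ replicate 2, and between 61 and 71 genes were higher in KO. The counts past either pair of thresholds were 0 under all 18, also for the wider list of genes outside the 78. The number of genes at an unadjusted p of 0.05 was 4 (5.13%, against 9.3% of all tested genes, in either direction) and became 7 with normexp background correction (8.97% against 11.6%), 8 with the methods' t-test (10.3% against 11.4%) and 10 with trend and robust eBayes (12.8% against 11.2%), and ran from 2 to 11 when an array was left out (2 on dropping replicate 1 or 3 of HZ or replicate 2 of KO, or 2.56% against 6.63% to 7.44%, and 11 on dropping replicate 2 of HZ, or 14.1% against 13.5%). With the replicate number as a block it was 6 (7.69% against 12.5%). Taking the percentile over probes well above background moved the median of all tested genes to -0.002 (49.6% higher), with 64 of the 78 genes higher and a median of 0.08. Of 299 values for 23 named genes under these 13, 17 changed sign. With normexp, beside the values given with each gene, Mrps18c became 0.05, Mrps18b 0.51, Mrps18a 0.03, Mrps36 0.05 and Mrpl12 0.13. The cause of these moves was not tested. The probes of all 78 genes were well above background on every array. With 4 arrays a group, the median standard error of a difference was 0.10, and what set its size was not tested.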
